A study of Mus musculus with 6 samples.

Results

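Hcn2, Hcn3 and Hcn4 encode hyperpolarization-activated, cyclic nucleotide-gated (HCN) pacemaker channels, and Pex5l encodes TRIP8b, their brain trafficking partner. These 4 genes were found by symbol among 23361 rows of a table of hippocampal expression, and the remaining gene of the channel family is not analysed here. They were taken by symbol, from a list drawn up with earlier results of these data known. The tested libraries came from Tet1Δe4-/- mice, homozygous for a Tet1 allele whose name denotes deletion of exon 4, and are called Tet1-deficient here. The others came from Tet1+/+ mice, called wild-type. The Tet1 protein oxidises 5-methylcytosine of DNA, a first step of its removal. Each genotype had 3 libraries of whole hippocampus, and the design text counts 3 mice for each. Mice of both genotypes were given electroconvulsive shock through the ears (18 mA, 100 Hz, pulses of 0.2 ms for 1.15 s), and tissue was frozen 1.5 to 2 hours later. The sources used here name no strain, age or sex, and the title of wild-type replicate 1 alone has an f where the others have an m, a code the labels leave unexplained. No unshocked mice are analysed here, so a response to the shock itself was not measured.

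HCN channels open when the membrane becomes more negative and carry an inward cation current, called Ih. In hippocampal neurons Ih sets the resting potential, dampens the summation of dendritic inputs and shapes rhythmic firing. Cyclic AMP binds the channels from inside and eases their opening. HCN2 and HCN4 respond strongly to cyclic AMP and HCN3 weakly. HCN4 is best known as the pacemaker channel of the heart's sinoatrial node, and HCN2 and HCN4 are prominent in thalamic neurons. TRIP8b binds the channels' C-terminal parts, controls their surface and dendritic placement and lowers their sensitivity to cyclic AMP.

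The coding sequences of the 3 channels are shown first, because their likeness bears on how well reads can be told apart. In a nucleotide alignment of the longest coding sequences of GENCODE M21, Hcn2 and Hcn3 were 68.6% identical over 2263 aligned bases. Hcn2 and Hcn4 were 68.8% identical over 2542 bases, and Hcn3 and Hcn4 69.0% over 2300 bases. The longest run shared exactly by any pair was 33 bases, between Hcn2 and Hcn3. The most alike 90-base window of all 3 channels is printed below, 5′ to 3′, with capitals where the 3 sequences are not all the same.
Hcn2: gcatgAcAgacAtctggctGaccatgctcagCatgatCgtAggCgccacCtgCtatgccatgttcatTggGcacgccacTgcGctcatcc
Hcn3: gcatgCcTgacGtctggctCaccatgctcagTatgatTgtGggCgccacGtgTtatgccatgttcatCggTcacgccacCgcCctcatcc
Hcn4: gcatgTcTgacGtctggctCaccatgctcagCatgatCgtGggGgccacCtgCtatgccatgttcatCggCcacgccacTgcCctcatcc
The window starts at coding base 1229 of Hcn2, 959 of Hcn3 and 1463 of Hcn4. Of its 90 positions 76 were the same in all 3 genes and 14 were not. Neither the read length nor the handling of multi-mapped reads is stated in the sources used here.

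RefSeq promoters were at hand for Hcn2 and Hcn4, 2 of the 4 genes. They are printed because TET1 protein has a domain that binds CpG-rich DNA. Each is the 250 bases before the RefSeq start on the plus strand of GRCm38.p6, with every CG dinucleotide in capitals. For Hcn4 that start, 58822949, lies upstream of the GENCODE start at 58823412, so its window and counts hold for the RefSeq start only.
Hcn2, chr10:79716384-79716633: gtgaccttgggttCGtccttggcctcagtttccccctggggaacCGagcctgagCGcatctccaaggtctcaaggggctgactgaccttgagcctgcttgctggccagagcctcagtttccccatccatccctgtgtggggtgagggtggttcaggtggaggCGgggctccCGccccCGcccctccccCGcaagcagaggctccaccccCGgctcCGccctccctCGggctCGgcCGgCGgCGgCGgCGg
Hcn4, chr9:58822699-58822948: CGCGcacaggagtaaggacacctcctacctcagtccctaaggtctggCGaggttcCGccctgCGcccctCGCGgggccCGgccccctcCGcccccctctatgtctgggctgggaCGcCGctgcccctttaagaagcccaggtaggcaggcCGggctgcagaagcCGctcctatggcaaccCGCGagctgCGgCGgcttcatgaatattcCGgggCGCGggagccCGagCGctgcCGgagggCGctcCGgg
The motif CG, which reads the same on both strands, occurred 16 times before Hcn2 and 25 times before Hcn4, against a median of 6 over 32851 promoter windows of the same length. As many CG as in Hcn2 were held by 25.4% of all windows, and as many as in Hcn4 by 10.7%. The cyclic AMP response element TGACGTCA, searched on both strands, was in neither window and in 1.55% of all windows. No methylation was measured in this series.

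In mm10 (GENCODE M21), Hcn2 lies on the plus strand of chromosome 10, from 79716634 to 79736108, and Hcn4 on the plus strand of chromosome 9, from 58823412 to 58863175. On chromosome 3, both on the minus strand, Hcn3 spans 89146074 to 89160196 and Pex5l 32949408 to 33143247. All 4 are annotated as protein-coding. The coding transcripts compared above have 8 exons in each channel gene, and Pex5l has 9 coding transcripts, which a gene-level value does not separate. Hcn2 shares its chromosome with Tet1, and 16.8 Mb separate the genes. The end of Hcn3 overlaps Pklr on the opposite strand by 711 bases, and Pklr measured at most 0.0296 FPKM in Tet1-deficient and 0.0708 FPKM in wild-type libraries. Pex5l is overlapped on the opposite strand by the annotated antisense genes Gm37459 and 4930419G24Rik. 4930419G24Rik was at 0 in 2 of 3 libraries of either genotype, and at 0.0655 FPKM in the remaining Tet1-deficient and 0.0258 FPKM in the remaining wild-type library. These overlaps are of whole gene spans, introns included, and exons were not compared. Without a stated strand setting, reads from any stretch that both genes transcribe cannot be told apart. RefSeq lists the symbol Hcn4 among the older names of Hcn3 and Hcn3 among those of Hcn4, and the sources used here do not name the authors' annotation.

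All values are FPKM, fragments scaled to transcript length and to the mapped total of the library, which allow levels to be compared between genes. Read depth is unknown, so no counting error can be given, and the precision rests on 3 libraries per genotype. FPKM summed to between 371014 and 390042 in the 6 libraries. Tet1-deficient replicate 1 and wild-type replicate 1 stood apart from the other 4 libraries on the first principal component, which held 53.3% of the variance. Results are therefore also given without these 2. Tet1 itself measured 0.740, 0.685 and 0.638 FPKM in Tet1-deficient libraries and 0.977, 0.718 and 0.897 FPKM in wild-type libraries, and a gene-level value does not check the deletion of 1 exon. Markers of the hippocampal fields were abundant in sum, with sums over 8 or 9 genes of at least 243 FPKM in Tet1-deficient and 278 FPKM in wild-type libraries for CA1, 441 and 376 FPKM in that order for CA3 and CA2, and 289 and 280 FPKM for dentate granule cells. Single genes carried much of the last 2 sums. Pcp4 of the CA3 and CA2 list measured at least 293 FPKM in Tet1-deficient and 245 FPKM in wild-type libraries, and Rasgrp1 of the dentate list 136 and 143 FPKM. Of the 8 CA3 and CA2 markers 6 averaged 1 FPKM or more. The 13 thalamus and habenula markers summed to at most 40.4 and 40.1 FPKM, and 7 of them averaged 1 FPKM or more, led by Prkcd and Rora, at means of 13.2 and 6.44 FPKM in Tet1-deficient and 12.6 and 6.12 FPKM in wild-type libraries. Gbx2 and Pou4f1 were the lowest of the 13, at most 0.0359 FPKM in any library.

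The 4 genes kept the same order of level in all 6 libraries. Pex5l was highest at a mean of 80.0 FPKM, followed by Hcn2 at 24.3, Hcn3 at 3.61 and Hcn4 at 0.504 FPKM. The ranges of neighbours in this order did not touch: Pex5l ran from 72.9 to 85.7 FPKM over all libraries, Hcn2 from 21.8 to 26.0, Hcn3 from 3.08 to 3.92 and Hcn4 from 0.293 to 0.642. Of the 19123 genes above 0 in at least 1 library, 4.78% had a higher mean than Pex5l, 17.5% than Hcn2, 52.2% than Hcn3 and 71.2% than Hcn4.

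No genotype difference was detected for any of the 4 genes. A limma adjusted p under 0.05 was the threshold, and 0 of the 4 passed it, against 0.0319% of the 12533 genes that averaged 1 FPKM or more. At an unadjusted p under 0.05 there were also 0 of the 4, against 1.36% of those genes. The genotypes overlapped for all 4 genes, where 4.13% of the genes tested did not overlap. A log2 difference is taken on log2(FPKM + 1), with the wild-type mean subtracted from the Tet1-deficient one, and the limma p-values carry a Benjamini-Hochberg adjustment. Exact two-sided permutation tests over the 6 libraries, whose smallest possible p is 0.1, are given beside them.

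Hcn2, the most abundant of the 3 channel genes, measured 21.8, 26.0 and 25.6 FPKM in Tet1-deficient replicates 1, 2 and 3, against 22.1, 24.7 and 25.5 FPKM in wild-type replicates 1, 2 and 3. Replicate 1 was the lowest library of either genotype, and the groups overlapped. The means were 24.5 ± 2.34 FPKM in Tet1-deficient and 24.1 ± 1.74 FPKM in wild-type hippocampus (SD, n = 3 each). This gave a log2 difference of 0.019 (SE 0.11) and a 95% interval from −0.24 to 0.27 (limma adjusted p 1.00). That interval corresponds to ratios between 0.849 and 1.21. The exact permutation p was 0.7.

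Hcn3 measured 3.49, 3.82 and 3.92 FPKM in Tet1-deficient replicates 1, 2 and 3, against 3.08, 3.73 and 3.64 FPKM in wild-type replicates 1, 2 and 3. Again replicate 1 was the lowest of either genotype. The lowest Tet1-deficient value lay below the 2 higher wild-type values. The means were 3.74 ± 0.228 FPKM in Tet1-deficient and 3.49 ± 0.354 FPKM in wild-type hippocampus (SD, n = 3 each), a ratio of 1.07. This gave a log2 difference of 0.083 (SE 0.099) and a 95% interval from −0.15 to 0.32 (limma adjusted p 1.00), and the exact permutation p was 0.4. Hcn3 was the 1 gene of the 4 whose difference kept its sign in all 15 alternatives, and it passed the threshold in none of them. Some alternatives could not turn the sign: no filter, no trend, a threshold of 0.1 and the library split as a term left the estimate at 0.083.

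Hcn4 was scarce, at 0.293, 0.638 and 0.524 FPKM in Tet1-deficient replicates 1, 2 and 3, against 0.371, 0.642 and 0.553 FPKM in wild-type replicates 1, 2 and 3. It varied more between libraries than the other 3 genes, with a highest value 2.19 times its lowest. The means were 0.485 ± 0.176 FPKM in Tet1-deficient and 0.522 ± 0.138 FPKM in wild-type hippocampus (SD, n = 3 each). Hcn4 lay under 1 FPKM and was fitted with all 19123 genes above 0, of which 0.0209% passed the threshold. This gave a log2 difference of −0.039 (SE 0.11) and a 95% interval from −0.30 to 0.22 (limma adjusted p 1.00), and the exact permutation p was 0.6. A pseudocount of 1 FPKM compresses a gene at this level. With 0.1 FPKM the difference was −0.11 and the interval ran from −0.81 to 0.59, so the values constrain a difference in Hcn4 less than one in the other 3 genes.

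Pex5l, the gene of the trafficking partner, measured 84.8, 72.9 and 79.9 FPKM in Tet1-deficient replicates 1, 2 and 3, against 75.2, 85.7 and 81.3 FPKM in wild-type replicates 1, 2 and 3. The lowest and the second highest values were both Tet1-deficient. The means were 79.2 ± 6.0 FPKM in Tet1-deficient and 80.7 ± 5.31 FPKM in wild-type hippocampus (SD, n = 3 each). This gave a log2 difference of −0.028 (SE 0.099) and a 95% interval from −0.26 to 0.21 (limma adjusted p 1.00), and the exact permutation p was 0.7. Unlike the channel genes, Pex5l was not lowest in both libraries that stood apart.

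**Figure D1:**
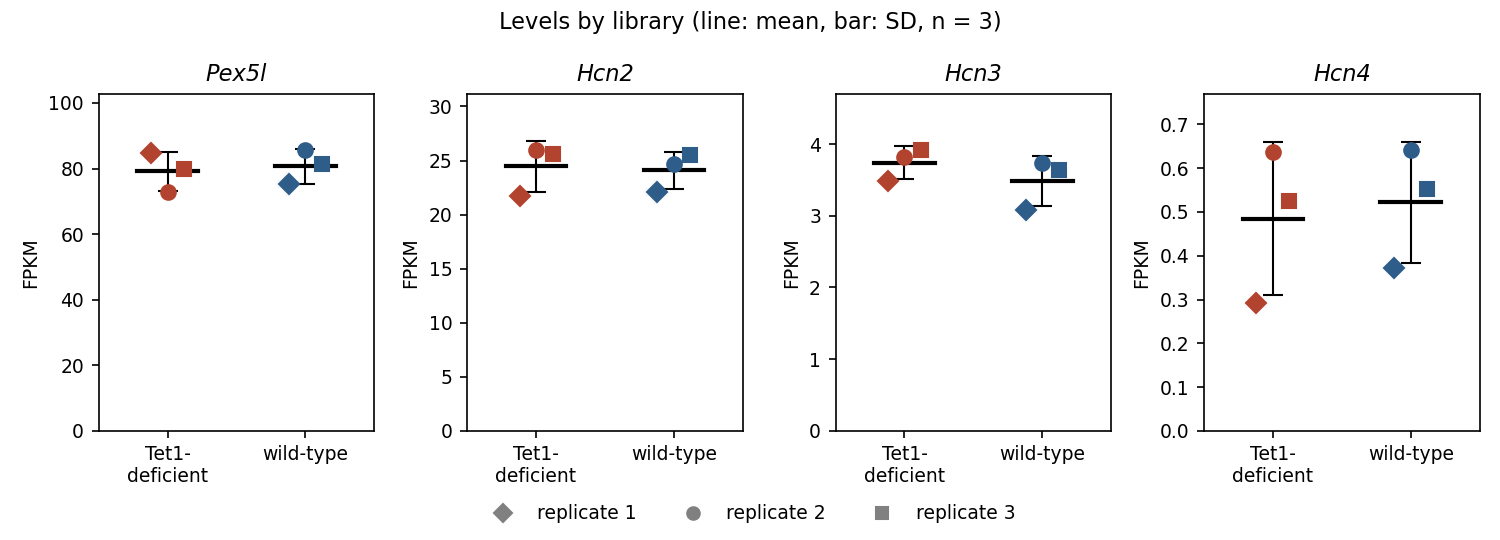
FPKM of Pex5l, Hcn2, Hcn3 and Hcn4 in each library, 1 panel per gene on its own linear axis from 0, with Tet1-deficient libraries left of wild-type ones. Points are libraries, with shapes for replicate numbers, lines are means and bars SD (n = 3). The genotypes overlap in every panel, and the diamond of replicate 1 is the lowest point of either genotype for the 3 channel genes.

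The spread within genotypes was small for Hcn2, Hcn3 and Pex5l. On the log2(FPKM + 1) scale their pooled within-genotype SD was 0.12, 0.096 and 0.10, in that order, against a median of 0.16 over the genes tested. That of Hcn4 was 0.16, but Hcn4 is not among those genes and the pseudocount of 1 FPKM compresses its SD. In FPKM the SD of Hcn4 was 36.2% of its mean in Tet1-deficient and 26.4% in wild-type libraries. For the other 3 genes it was at most 10.2%. Part of this spread followed the library split. From the gene's mean over the 6 libraries, Tet1-deficient replicate 1 deviated by −0.15 for Hcn2, −0.038 for Hcn3 and −0.21 for Hcn4. Wild-type replicate 1 deviated by −0.12, −0.17 and −0.13 in the same order. All 4 other libraries lay above the mean for each of the 3 channel genes. Being lowest of its genotype in both libraries that stood apart was common, however, and held for 39.2% of the 12533 genes tested. For Pex5l the deviation was 0.086 in Tet1-deficient replicate 1 and −0.086 in wild-type replicate 1.

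**Figure D2:**
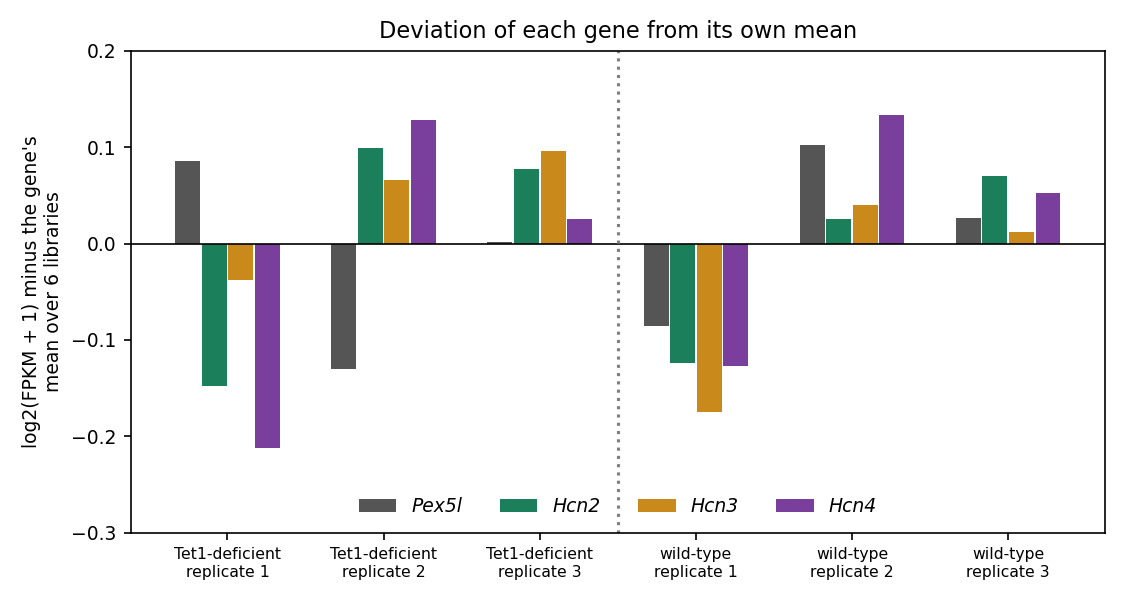
Deviation of log2(FPKM + 1) from each gene's mean over the 6 libraries, for 4 genes in each library, Tet1-deficient libraries left of wild-type ones. Bars of the 3 channel genes point down in replicate 1 of both genotypes and up in the other 4 libraries, while those of Pex5l do not follow this split.

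Sums of cell type markers also differed between these libraries, though single markers did not all follow. The summed level of 13 GABAergic interneuron markers was 743, 947 and 851 FPKM in Tet1-deficient replicates 1, 2 and 3, against 818, 1058 and 962 FPKM in wild-type replicates 1, 2 and 3. Of these markers 8 were lowest in replicate 1 of both genotypes and 2, Gad2 and Cnr1, were highest there. Among all genes tested, 39.2% were lowest and 31.5% highest in both. The 13 thalamus and habenula markers summed to 34.2, 40.4 and 37.2 FPKM in Tet1-deficient and to 35.9, 40.1 and 39.7 FPKM in wild-type replicates. Of the 7 tested, 3 were lowest in replicate 1 of both genotypes and 2 highest. These shares, 42.9% and 28.6%, lie near those of all genes tested. The sums of 8 astrocyte markers were highest in those 2 libraries, at 1341 FPKM in the Tet1-deficient and 1304 FPKM in the wild-type one. Singly, 5 of the 8 were highest in both, against 31.5% of all genes tested, and Aldh1l1 was lowest in both. Dentate granule sums were 336 and 321 FPKM and microglia sums 159 and 155 FPKM in the same libraries, each the highest of its genotype. Singly, 4 of the 9 dentate granule markers were highest in both libraries and 3 lowest. Of the 7 microglia markers 3 were highest in both and 4 lowest, so most of them did not follow their sum. Oligodendrocyte and precursor sums were the lowest of their genotype in these libraries, at 3060 and 3341 FPKM. Singly, 7 of their 11 markers were lowest in both and 1 highest. Of 15 immediate early genes, a list kept apart from the cell types, 10 were highest in both and 2 lowest. The part of these cell types and genes in the levels of the channel genes was not tested. In whole tissue, fewer cells of a type and less RNA per cell cannot be told apart.

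With the libraries that stood apart left out, 2 libraries of each genotype remained. Hcn2 then lay at 26.0 and 25.6 FPKM in Tet1-deficient hippocampus, against 24.7 and 25.5 FPKM in wild-type (log2 difference 0.040, 95% interval −0.087 to 0.17). Hcn3 lay at 3.82 and 3.92 FPKM, against 3.73 and 3.64 FPKM in wild-type (0.055, interval −0.13 to 0.24). Hcn4 overlapped (−0.016, interval −0.19 to 0.16). Pex5l lay at 72.9 and 79.9 FPKM in Tet1-deficient hippocampus, against 85.7 and 81.3 FPKM in wild-type (−0.13, interval −0.29 to 0.037). Hence 3 of the 4 genes did not overlap in these libraries, but neither did 31.3% of the genes tested, and the limma adjusted p of each of the 4 was 0.999 or more. In the pair that stood apart, Pex5l differed the other way, at 84.8 FPKM in the Tet1-deficient and 75.2 FPKM in the wild-type library.

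**Figure D3:**
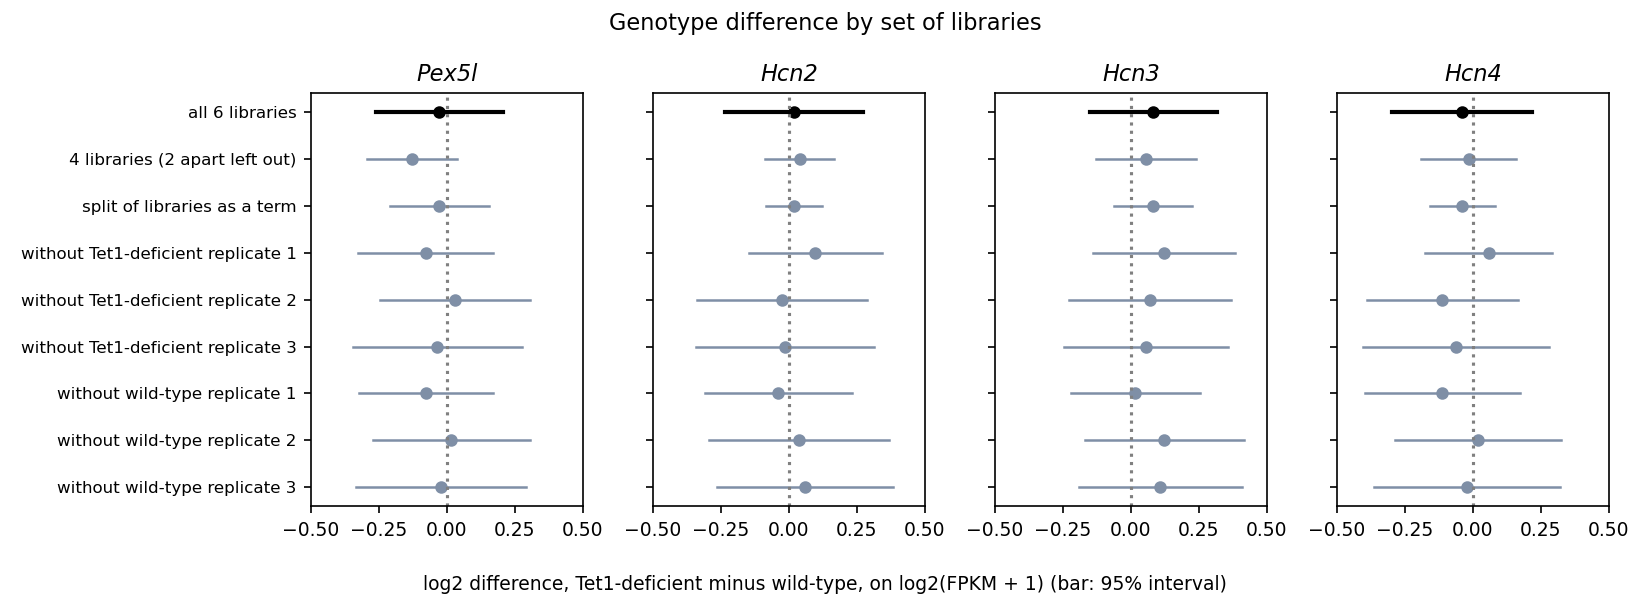
Log2 difference on log2(FPKM + 1), Tet1-deficient minus wild-type, of Pex5l, Hcn2, Hcn3 and Hcn4 from limma with 95% intervals. The fit to all 6 libraries stands at the top, followed by the 4-library fit, the fit that adds the library split, and the fits without 1 library each. Every interval spans 0.

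The share of each gene in the 3 channel genes overlapped between genotypes. Hcn2 made up 85.2%, 85.4% and 85.2% of their summed FPKM in Tet1-deficient replicates 1, 2 and 3, against 86.5%, 84.9% and 85.9% in wild-type replicates 1, 2 and 3. Hcn3 averaged 13.1% ± 0.556 in Tet1-deficient and 12.4% ± 0.420 in wild-type hippocampus, and Hcn4 1.66% ± 0.478 and 1.84% ± 0.381 in that order (SD, n = 3 each). Pex5l was 3.27 ± 0.563 times as abundant as Hcn2 in Tet1-deficient and 3.36 ± 0.146 times in wild-type hippocampus. The highest and the lowest of these ratios, 3.90 and 2.80, were both Tet1-deficient, in replicates 1 and 2. These shares and ratios are given with no test.

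Among trafficking partners and modulators of HCN channels, 0 of 22 tested genes rose and 0 fell, and 18 had higher means on the log2 scale in Tet1-deficient hippocampus and 4 lower, where 52.9% of all genes tested were higher. Their median log2 difference was 0.023, against 0.0055 over all genes tested. At an unadjusted limma p under 0.05 there was 1 gene of 22, against 1.36% of all genes tested, and 1 of 22 did not overlap, against 4.13%. Both counts were Camk2a, which encodes a subunit of the calcium- and calmodulin-dependent kinase II of synapses. Camk2a measured 1415, 1354 and 1339 FPKM in Tet1-deficient libraries, against 1208, 1192 and 1142 FPKM in wild-type libraries. All 3 Tet1-deficient values lay above the wild-type ones, with a log2 difference of 0.21 (SE 0.073, limma unadjusted p 0.023, adjusted p 1.00). Camk2b, of the same kinase, averaged 471 ± 52.9 FPKM in Tet1-deficient and 454 ± 56.9 FPKM in wild-type hippocampus (SD, n = 3 each). Ap2m1, of the endocytic clathrin adaptor, averaged 285 ± 17.5 FPKM in Tet1-deficient and 282 ± 14.4 FPKM in wild-type hippocampus.

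Further genes of this list are named here after their values were seen. Of the 22 tested, 11 were lowest in replicate 1 of both genotypes and 9 were highest there, against 39.2% and 31.5% of all genes tested. Kctd3, whose product binds HCN3 and raises its surface level, measured 25.9, 31.4 and 31.8 FPKM in Tet1-deficient libraries, against 26.5, 31.2 and 30.1 FPKM in wild-type libraries. Grasp, which encodes the scaffold tamalin, measured 53.7, 84.9 and 82.4 FPKM in Tet1-deficient libraries, against 53.2, 82.6 and 77.0 FPKM in wild-type libraries. Both were among the genes lowest in replicate 1. Nedd4l, of a ubiquitin ligase, measured 27.7, 27.0 and 23.6 FPKM in Tet1-deficient libraries, against 27.2, 26.9 and 25.4 FPKM in wild-type libraries. Vapa, of an endoplasmic reticulum membrane protein, measured 65.2, 56.3 and 56.5 FPKM in Tet1-deficient libraries, against 68.3, 53.2 and 55.1 FPKM in wild-type libraries. These were among the genes highest in replicate 1. Rest, the gene of a repressor known to silence neuronal genes, HCN channels among them, measured 0.865, 2.09 and 1.44 FPKM in Tet1-deficient libraries, against 0.943, 1.51 and 1.45 FPKM in wild-type libraries. Rest was lowest in replicate 1 of either genotype.

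Kcne2, a small auxiliary subunit of HCN and potassium channels that is abundant in choroid plexus, lay under 1 FPKM and was not tested. It measured 0.118, 0.978 and 0.111 FPKM in Tet1-deficient libraries, against 0.127, 0.177 and 0.684 FPKM in wild-type libraries. The 2 high libraries, Tet1-deficient replicate 2 and wild-type replicate 3, were also high in the summed 8 choroid plexus markers, at 199 and 305 FPKM in that order. The other sums were 22.4 and 9.52 FPKM in Tet1-deficient and 17.5 and 7.52 FPKM in wild-type libraries. The part of choroid plexus tissue in the Kcne2 values was not tested. Hcn2 was also highest of its genotype in the 2 high libraries, but by small margins. It measured 26.0 FPKM there and 25.6 FPKM in the next Tet1-deficient library, and 25.5 against 24.7 FPKM in wild-type. Neither Hcn3 nor Hcn4 was highest in both. How many of all genes tested share this order was not counted, and a link of Hcn2 to choroid plexus tissue was not tested.

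Cyclic AMP, the ligand of the channels, is made by adenylyl cyclases and broken down by phosphodiesterases. Of 23 tested genes, which include the peptide gene Adcyap1 and its receptor gene Adcyap1r1 that stimulate the cyclases, 0 rose and 0 fell, 10 had higher and 13 lower means, and the median log2 difference was −0.0056. Adcy1, of a calmodulin-stimulated neuronal cyclase, averaged 109 ± 5.86 FPKM in Tet1-deficient and 105 ± 8.50 FPKM in wild-type hippocampus (SD, n = 3 each). The phosphodiesterase genes Pde2a and Pde1a averaged 95.1 ± 8.13 and 83.1 ± 19.8 FPKM in Tet1-deficient hippocampus, against 94.2 ± 8.48 and 79.3 ± 17.1 FPKM in wild-type. The smallest unadjusted limma p of the list was 0.166, for the cyclase gene Adcy7 at 0.933 ± 0.0884 FPKM in Tet1-deficient and 1.13 ± 0.0556 FPKM in wild-type hippocampus. Adcy7 was the 1 gene of 23 whose values did not overlap, against 4.13% of all genes tested.

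Of 10 tested genes of other cyclic nucleotide-binding proteins 0 rose and 0 fell, with 5 higher and 5 lower means and a median log2 difference of −0.00053. Prkar1a and Prkar1b, regulatory subunits of protein kinase A, averaged 264 ± 40.0 and 197 ± 23.2 FPKM in Tet1-deficient hippocampus, against 259 ± 36.4 and 206 ± 19.8 FPKM in wild-type (SD, n = 3 each). Rapgef4, of the cyclic AMP sensor Epac2, averaged 111 ± 10.9 FPKM in Tet1-deficient and 103 ± 7.99 FPKM in wild-type hippocampus. The smallest unadjusted limma p was 0.299, for Popdc3 of a cyclic AMP-binding membrane protein family, at 4.05 ± 0.358 FPKM in Tet1-deficient and 3.65 ± 0.420 FPKM in wild-type hippocampus.

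Of the 14 related channel genes with a cyclic nucleotide-binding fold 5 were tested, of which 0 rose and 0 fell, and Cnga1 was listed at 0 in all libraries. The median log2 difference was −0.0012. The ether-à-go-go family genes Kcnh3, Kcnh1 and Kcnh2 averaged 19.7 ± 2.34, 11.1 ± 0.659 and 6.16 ± 1.02 FPKM in Tet1-deficient hippocampus, against 20.0 ± 2.34, 11.1 ± 1.54 and 6.53 ± 0.859 FPKM in wild-type (SD, n = 3 each). Kcnh5 of the same family measured 2.91, 2.52 and 2.44 FPKM in Tet1-deficient libraries, against 2.15, 2.18 and 1.97 FPKM in wild-type libraries. It was the 1 gene of 5 whose values did not overlap, against 4.13% of all genes tested, with a log2 difference of 0.22 (SE 0.094, limma unadjusted p 0.0492, adjusted p 1.00).

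Channels that act beside Ih in dendrites and in rhythmic firing held no gene past the threshold. Of 20 tested genes 0 rose and 0 fell, 13 had higher and 7 lower means, and the median log2 difference was 0.043. Dpp6 and Kcnip2, auxiliary subunits of A-type potassium channels, averaged 97.7 ± 6.45 and 74.5 ± 3.94 FPKM in Tet1-deficient hippocampus, against 99.4 ± 2.35 and 68.7 ± 2.58 FPKM in wild-type (SD, n = 3 each). The smallest unadjusted limma p was 0.217, for the leak channel gene Kcnk9, at 13.0 ± 0.422 FPKM in Tet1-deficient and 11.8 ± 1.15 FPKM in wild-type hippocampus.

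**Figure D4:**
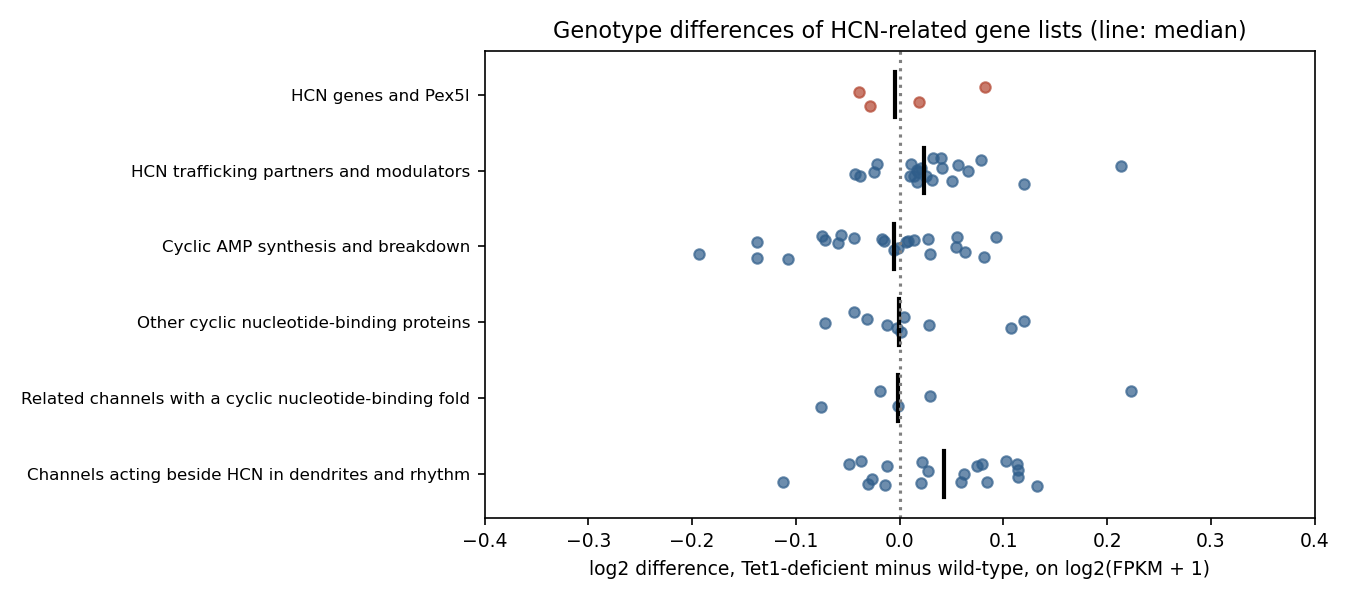
Log2 differences on log2(FPKM + 1), Tet1-deficient minus wild-type, of single genes (points, spread vertically at random) in 6 gene groups, with group medians as lines. The 4 genes of the top row lie between −0.039 and 0.083, and the farthest points to the right are Camk2a in the second row and Kcnh5 in the fifth.

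The levels of cell type markers bear on the tissue sampled, and 0 of their tested genes rose or fell. All 8 CA1 pyramidal markers had lower means in Tet1-deficient hippocampus, with sums from 243 to 269 FPKM, against 278 to 301 FPKM in wild-type libraries. The sums did not overlap, but singly 1 of the 8 did not, against 4.13% of all genes tested. Lower means were found for 47.1% of those genes. All 6 tested CA3 and CA2 markers had higher means, as did 52.9% of all genes tested, and 0 of the 6 stood without overlap. The sums over 8 markers ran from 441 to 459 FPKM in Tet1-deficient and from 376 to 447 FPKM in wild-type libraries. Most of each sum was Pcp4. Of the 2 markers too low to be tested, Map3k15 overlapped and Iyd was lower without overlap. Iyd measured 0.682, 0.469 and 0.620 FPKM in Tet1-deficient libraries, against 1.25, 1.17 and 0.863 FPKM in wild-type libraries. The 9 dentate granule markers summed to between 289 and 336 FPKM in Tet1-deficient and between 280 and 321 FPKM in wild-type libraries. Oligodendrocyte and precursor markers, 11 genes, summed to between 3060 and 3979 FPKM in Tet1-deficient and between 3341 and 3582 FPKM in wild-type libraries. The 9 vessel and meninges markers all had lower means, with sums from 16.9 to 31.7 FPKM in Tet1-deficient and from 19.8 to 51.3 FPKM in wild-type libraries. The 7 microglia markers summed to between 142 and 159 FPKM in Tet1-deficient and between 148 and 155 FPKM in wild-type libraries. Their part in the levels of the HCN genes was not tested.

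The genes whose pattern over the 6 libraries was most like that of each gene were taken by Pearson r on log2(FPKM + 1). Predicted genes, with Gm or Rik symbols, were left out of this search and of its counts. For Hcn2 they were Zfp108 (r = 0.999) and Taf15 (r = 0.997), for Hcn3 B4galt2 (0.996) and Atpif1 (0.995), and for Hcn4 Nelfcd (0.997) and Slc32a1, the vesicular GABA transporter gene of interneurons (0.996). For Pex5l they were Sdf2 (0.971) and Man1a (0.971). An r over 0.95 was reached with Hcn2 by 832 of 11881 genes searched, with Hcn4 by 506 of 11882, with Hcn3 by 132 and with Pex5l by 8. Without the libraries that stood apart, r over the 4 others lay between 0.959 for Sdf2 and 0.995 for Man1a among the 8 named genes. These genes were picked on data that include the 4 libraries. Taf15 measured 29.6, 50.5 and 47.9 FPKM in Tet1-deficient libraries, against 30.2, 43.2 and 45.8 FPKM in wild-type libraries. These likenesses were picked as the highest of many and describe 6 libraries.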

How the data were processed

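Whole hippocampus of 3 Tet1-deficient and 3 wild-type mice was measured by RNA sequencing on an Illumina instrument, per the labels' protocols. The authors deposited gene-level FPKM with a column for each library. TopHat2 2.0.9 and Cufflinks 2.1.1 were used with mm10, per the submitters' processing notes. The sources used here state no annotation, strand setting or filter, so depth is unknown and overlapping genes may share reads.

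Here, log2(FPKM + 1) was modelled on genotype alone in limma 3.58.1 (R 4.3.3, trend of variance on level) over the 12533 genes averaging 1 FPKM or more, and adjusted by Benjamini-Hochberg at a threshold of 0.05. Hcn4 and Tet1 came from the same model over all 19123 genes above 0. Replicate numbers follow the order of the samples and pair none, and p-values measure only the spread between these libraries. Coding sequences were aligned with mafft 7.526. Gene positions are from GENCODE M21, promoter sequences from RefSeq (GRCm38.p6).

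The 4 genes and the gene lists were chosen with earlier results of these data known. Apart from the 4 genes and Tet1, named genes are the 3 most abundant tested genes and the one with the smallest p of each related list, and the 2 genes most like each of the 4 in pattern. Genes that overlap the 4, further partners and Kcne2, and single markers or genes at 0 were named outside this rule, after their values were seen. One gene that the rule takes is not reported here. For most marker lists, sums are given in place of the 2 most abundant genes that the rule also takes. The alternatives were another pseudocount, no filter, 2 other scalings, no trend, library weights, a threshold of 0.1, each library left out, and 2 fits for the library split.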

Additional observations from a re-analysis of the deposited data

How the results depend on the processing

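None of Hcn2, Hcn3, Hcn4 and Pex5l passed the limma threshold in any of the 15 alternatives, where the lowest adjusted p was 0.627, for Hcn4 with library weights. Hcn3 kept its sign in all 15. No filter, no trend, a threshold of 0.1 and the library split as a term could turn no sign, since they left each estimate unchanged. Hcn2 turned to −0.0054 with quantile normalization. With 1 library left out, the log2 difference ran from −0.038 to 0.098 for Hcn2, from 0.016 to 0.12 for Hcn3, from −0.11 to 0.058 for Hcn4 and from −0.078 to 0.030 for Pex5l. The signs of Hcn2, Hcn4 and Pex5l turned in some of these fits: for Hcn2 without Tet1-deficient replicate 2 (−0.026), Tet1-deficient replicate 3 (−0.015) or wild-type replicate 1 (−0.038), for Hcn4 without Tet1-deficient replicate 1 (0.058) or wild-type replicate 2 (0.018), and for Pex5l without Tet1-deficient replicate 2 (0.030) or wild-type replicate 2 (0.016). Over all genes, 4 passed in the fit to 6 libraries, 59 with library weights, 12 in the 4 libraries, 8 with the split as a term, and 0 to 6 with 1 library left out; the cause was not tested. A gene as scarce as Hcn4 is compressed by the pseudocount of 1 FPKM, and depth is unknown. No paired analysis was possible because the labels pair no libraries.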
